A study of Mus musculus with 12 samples.

Results

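The regions described here are the ATAC-seq peaks whose midpoint lies in either of 2 windows of the mouse genome (mm10) that hold clusters of zinc finger genes: chr2:175000000-178000000 (3 Mb) and chr4:146000000-148000000 (2 Mb). ATAC-seq marks open chromatin by letting a transposase insert sequencing adapters into it. The windows were chosen because the number of peaks in them differed between the lists, so the numbers, widths and covered lengths below describe that choice and none of them was tested. With overlapping peaks of all lists joined, the windows held 1651 of 99068 regions, 1095 in the chromosome 2 window and 556 in the chromosome 4 window. Single lists held 255 to 1150 peaks there, of 37129 to 50424 in the whole list.

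The cells came from mouse embryos at embryonic day 7.5 on a mixed C57Bl6/J x CD-1 background, with the extraembryonic part removed and both sexes mixed. All embryos were homozygous for a knock-in allele that joins FoxA2, a forkhead transcription factor of endoderm, node and notochord, to the red fluorescent protein tagRFP. In the mutant (FoxA2-ΔHx-tagRFP, written dHx) the allele was without a stretch of 10 residues in one of FoxA2's alpha helices, and in the wild-type form (FoxA2WT-tagRFP, written WT) it was whole. Cells were sorted into tagRFP Negative, Middle (up to the signal of heterozygous cells) and High (above it). Each sort used about 10 embryos, and each library 2000 to 5000 cells. The 12 samples form 6 groups: dHx Negative, WT Negative, dHx Middle, WT Middle, dHx High and WT High, with 2 samples each. Each group is given as 1 peak list of its pooled samples, so no spread between replicates could be had, and intervals below cover counting error only. Peak lists hold no sequence of the allele, so the loss of the helix could not be checked in them. Of 8 marker loci (gene body and 20 kb on either side), Foxa2 had 7, 9 and 6 peaks in dHx Negative, Middle and High cells, against 5, 9 and 6 in WT cells. Noto, a node gene, had 2, 2 and 5 peaks in dHx cells and 0, 3 and 5 in WT cells. T, a gene of primitive streak and notochord, had 4, 3 and 5 in dHx cells and 1, 3 and 4 in WT cells. Hand1, a gene of lateral mesoderm, had 1, 0 and 0 in dHx cells and 5, 0 and 0 in WT cells. Prrx1, also a gene of lateral mesoderm, went the other way, with 7, 4 and 2 in dHx cells and 6, 1 and 1 in WT cells. Shh, Cdh1 and Sox17 differed by at most 3 peaks at any level. The part of such differences in the results below was not tested.

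Clusters of this kind hold genes for C2H2 zinc finger proteins, many with a KRAB domain. Rows of fingers read DNA sequence, and the KRAB domain recruits the corepressor TRIM28. Many such proteins silence transposable elements in the early embryo. The clusters arise by tandem duplication, so neighbouring genes and the DNA between them can be near copies of each other. In the RefSeq gene table of GRCm38.p6, the chromosome 4 window held 21 protein-coding genes, of which 14 had a Zfp symbol. The chromosome 2 window held 30, of which 7 had a Zfp symbol and 22 a provisional symbol (Gm or LOC) that the table does not class, so the name of that cluster was checked for the 7 only. Genome-wide, 400 of 21896 protein-coding genes had a Zfp symbol.

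How alike the copies are is visible in their promoters. The RefSeq windows below (GRCm38.p6) run from 250 bases before to 50 after a gene's start and are shown 5′ to 3′ on the gene's strand. Capitals mark CCAAT, the box bound by the factor NF-Y, on either strand (ATTGG is its other strand). The chromosome 2 windows come first. Zfp967, Zfp968, Zfp970 and Zfp972 were named by a rule on peak numbers, and each of the 4 windows overlapped a peak in all 6 lists.
Zfp967, chr2:176520754-176521053, plus strand: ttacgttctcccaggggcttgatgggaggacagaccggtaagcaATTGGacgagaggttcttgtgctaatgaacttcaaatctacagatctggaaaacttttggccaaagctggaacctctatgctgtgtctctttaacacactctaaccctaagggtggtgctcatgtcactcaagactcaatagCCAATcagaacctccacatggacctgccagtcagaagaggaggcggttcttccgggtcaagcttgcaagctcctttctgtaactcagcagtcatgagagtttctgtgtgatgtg
Zfp968, chr2:175372186-175372485, plus strand: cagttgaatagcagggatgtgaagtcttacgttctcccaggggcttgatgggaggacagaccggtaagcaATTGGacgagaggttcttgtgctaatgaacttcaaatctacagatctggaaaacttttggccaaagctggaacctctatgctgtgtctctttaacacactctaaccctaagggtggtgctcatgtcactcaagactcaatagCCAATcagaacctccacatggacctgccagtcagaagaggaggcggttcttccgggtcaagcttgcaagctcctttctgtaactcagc
Zfp970, chr2:177464492-177464791, plus strand: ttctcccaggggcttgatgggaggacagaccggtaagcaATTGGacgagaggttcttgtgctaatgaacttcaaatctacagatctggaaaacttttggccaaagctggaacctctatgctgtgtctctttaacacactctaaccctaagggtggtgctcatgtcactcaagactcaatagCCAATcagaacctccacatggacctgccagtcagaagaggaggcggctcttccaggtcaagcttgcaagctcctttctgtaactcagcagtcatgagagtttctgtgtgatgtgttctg
Zfp972, chr2:177925601-177925900, minus strand: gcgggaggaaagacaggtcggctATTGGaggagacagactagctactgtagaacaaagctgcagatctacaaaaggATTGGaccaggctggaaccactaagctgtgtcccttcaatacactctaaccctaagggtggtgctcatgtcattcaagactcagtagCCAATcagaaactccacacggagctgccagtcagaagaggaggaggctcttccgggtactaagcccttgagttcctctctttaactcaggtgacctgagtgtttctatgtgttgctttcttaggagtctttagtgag
Aligned, Zfp967 and Zfp970 shared 293 of 300 bases (97.7%), and Zfp967 and Zfp968, which are offset against each other, shared 274. Zfp972, at the far end of the cluster, shared 228 bases (76%) with Zfp967. The window of Zfp966 was equal to that of Zfp967 in every base, and so were those of Gm14308, Gm14434, Gm2026 and Gm4724 to each other.

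From chromosome 4, Rex2 and Zfp600 show a pair of near copies and Zfp984 shows the 1 Zfp window of this cluster that overlapped a peak in all 6 lists. Zfp600 and Zfp984 were added after their values were seen.
Rex2, chr4:147021600-147021899, plus strand: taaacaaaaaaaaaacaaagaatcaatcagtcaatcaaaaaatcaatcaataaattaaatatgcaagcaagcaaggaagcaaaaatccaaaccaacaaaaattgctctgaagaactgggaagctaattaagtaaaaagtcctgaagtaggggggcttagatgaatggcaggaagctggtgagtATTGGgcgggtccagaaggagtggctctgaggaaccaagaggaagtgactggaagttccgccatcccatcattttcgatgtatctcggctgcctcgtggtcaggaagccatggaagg
Zfp600, chr4:146156577-146156876, plus strand: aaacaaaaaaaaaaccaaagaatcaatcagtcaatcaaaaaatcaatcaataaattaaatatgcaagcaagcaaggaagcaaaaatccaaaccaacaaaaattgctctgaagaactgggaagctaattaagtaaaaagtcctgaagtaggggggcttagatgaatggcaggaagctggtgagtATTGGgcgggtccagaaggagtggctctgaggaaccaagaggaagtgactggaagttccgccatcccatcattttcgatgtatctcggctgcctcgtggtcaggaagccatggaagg
Zfp984, chr4:147809739-147810038, minus strand: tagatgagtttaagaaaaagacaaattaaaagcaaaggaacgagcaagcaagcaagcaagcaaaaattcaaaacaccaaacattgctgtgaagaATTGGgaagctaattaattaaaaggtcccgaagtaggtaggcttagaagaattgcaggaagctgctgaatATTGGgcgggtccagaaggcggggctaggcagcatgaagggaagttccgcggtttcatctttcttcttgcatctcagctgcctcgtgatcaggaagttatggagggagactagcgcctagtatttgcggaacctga
Rex2 and Zfp600 shared 299 of 300 aligned bases (99.7%). The Rex2 window overlapped a peak in 1 list, WT Negative, and the Zfp600 window in none. Zfp984 shared 221 bases (73.7%) with either. Between the chromosome 2 and chromosome 4 windows shown, which belong to different clusters, the same alignment gave 54.7% to 61%. The 73.7% here and the 76% of Zfp972 with Zfp967 are to be read against that range.

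On chromosome 2, the window held 1035, 752 and 217 peaks in dHx Negative, Middle and High cells, against 338, 444 and 214 in WT cells. The dHx list held more in Negative and Middle cells, and the numbers were close in High cells. The ratio of dHx to WT was 3.06 (exact 95% interval 2.71 to 3.47) in Negative, 1.69 (1.50 to 1.91) in Middle and 1.01 (0.836 to 1.23) in High cells. Outside both windows it was 1.27, 0.800 and 0.814 in the same order. The covered length differed more than the number. Peaks covered 1061, 720 and 162 kb of the chromosome 2 window in dHx Negative, Middle and High cells, which is 35.4%, 24.0% and 5.40% of it, against 225, 270 and 147 kb in WT cells, or 7.51%, 9.01% and 4.90%.

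In the chromosome 4 window WT held more peaks at each level. The window had 115, 51 and 38 peaks in dHx Negative, Middle and High cells, against 358, 436 and 184 in WT cells. The ratio of dHx to WT was 0.321 (0.258 to 0.397) in Negative, 0.117 (0.0857 to 0.157) in Middle and 0.207 (0.142 to 0.294) in High cells. WT thus held 3.11, 8.55 and 4.84 times as many peaks. Covered length was 63.3, 28.9 and 23.9 kb in dHx Negative, Middle and High cells (3.16%, 1.44% and 1.19% of the window), against 269, 276 and 109 kb in WT cells (13.5%, 13.8% and 5.44%). The chromosome 4 number of the dHx Negative list, 115, was also below that of every WT list, the lowest of which was 184 in WT High.

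**Figure D1:**
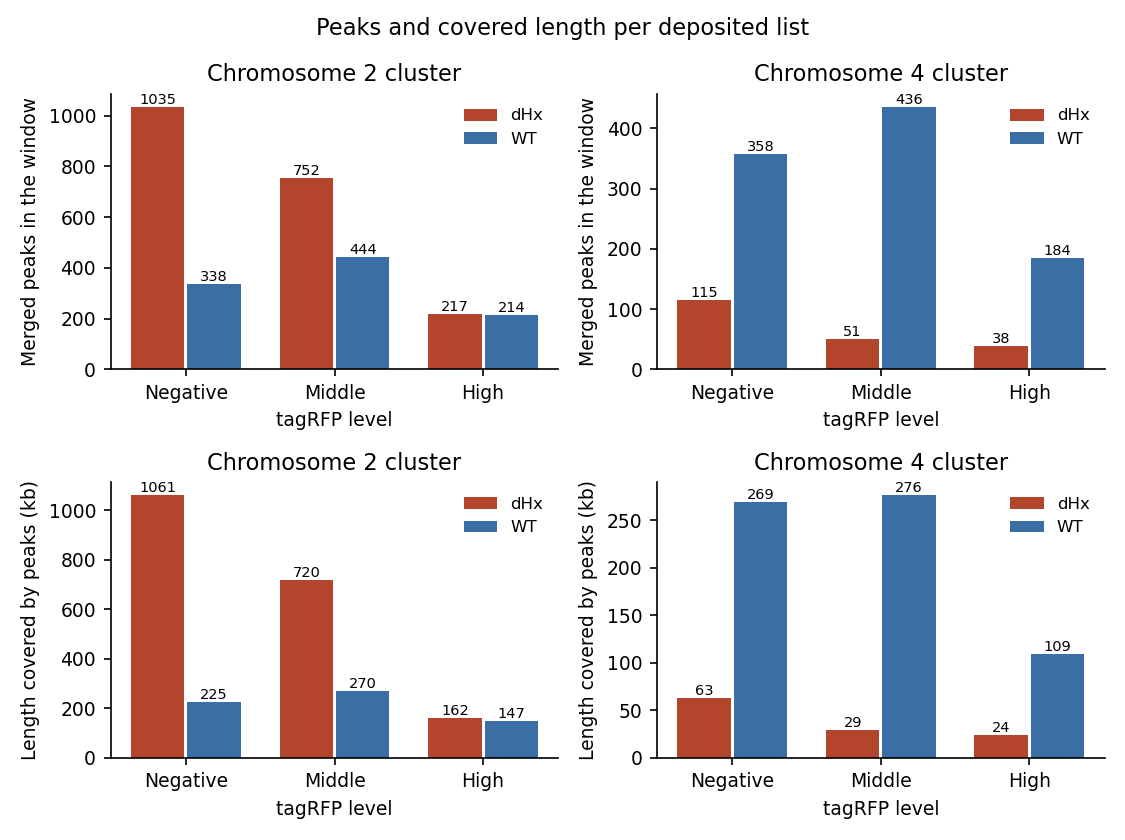
Number of merged peaks (top) and length covered by peaks in kb (bottom) in the chromosome 2 window (left) and the chromosome 4 window (right), by tagRFP level; each bar is 1 deposited list, dHx in red and WT in blue. On chromosome 2 dHx Negative (1035 peaks) stands above WT Negative (338), while on chromosome 4 each dHx bar stands below the WT bar beside it.

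Fitted depth moved with some of these differences. Read numbers were not used here, but a background fitted to the steps of the authors' scores (mean pileup per base) was taken as relative depth. The fit treats the scores as −log10 p values, which the sources do not state, so the depths are provisional. The fitted background was 1.57, 0.787 and 0.476 in the dHx Negative, Middle and High lists, against 1.08, 1.50 and 0.879 in the WT lists. The chromosome 2 excess in dHx Negative and the chromosome 4 deficit in dHx Middle and High thus stood in the direction of fitted depth. The part of depth in them was not tested. In dHx Middle the chromosome 2 window held more peaks than in WT Middle at a lower fitted background. In dHx Negative the chromosome 4 window held fewer than in WT Negative at a higher one. When the 37129 highest-scoring peaks of each list were used, the chromosome 2 ratio in High cells was 1.84 (1.46 to 2.32) instead of 1.01. On chromosome 4 the ratios were then 0.190 in Negative, 0.217 in Middle and 0.352 in High cells. The sides did not change at any level of chromosome 4.

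Across RFP levels within a genotype, the windows held the smallest share of the list in High cells. Both windows together held 1150, 803 and 255 peaks in dHx Negative, Middle and High cells, which is 2.28%, 2.05% and 0.687% of each list. In WT cells they held 696, 880 and 398 peaks, or 1.76%, 1.80% and 0.871%. The ratio of High to Negative was 0.222 (0.193 to 0.254) in dHx cells, against 0.748 outside the windows, and 0.572 (0.504 to 0.648) in WT cells, against 1.17 outside. With lists of equal length the dHx ratio was 0.358, and with every summit counted it was 0.148. Fitted background was lower in High than in Negative lists of both genotypes, and its part was not tested. On chromosome 2, 12.0% of dHx High peaks had no dHx Negative counterpart and 82.4% of dHx Negative peaks had no dHx High counterpart, with 38.9% and 54.4% over the whole lists. In WT cells the shares were 40.7% of High peaks and 63.6% of Negative peaks, with 49.0% and 41.0% over the whole lists.

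In the chromosome 2 window the median peak was wider in dHx than in WT at each level, by little in High cells. The median width was 698, 619 and 529 bp in dHx Negative, Middle and High cells, against 490, 439.5 and 518 bp in WT cells. Outside the windows the medians lay between 386 bp (WT Middle) and 460 bp (dHx High). The widest peak on chromosome 2 spanned 6734, 6327 and 2325 bp in dHx Negative, Middle and High cells, against 2606, 2560 and 2206 bp in WT cells. Peaks of at least 2 kb numbered 136, 82 and 11 in dHx cells, against 18, 10 and 3 in WT cells. In dHx Middle cells those 82 were 23.6% of the 347 such peaks of the whole list, and in dHx Negative cells the 136 were 19.0% of 715. Peaks with more than 1 summit made up 35.7%, 21.8% and 13.8% of the chromosome 2 peaks in dHx cells, against 10.7%, 14.2% and 11.7% in WT cells.

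Chromosome 4 peaks differed less in width than in number. The medians were 423, 499 and 640.5 bp in dHx Negative, Middle and High cells, against 516, 490 and 459.5 bp in WT cells, and the dHx High value rests on 38 peaks. Peaks of at least 2 kb numbered 1, 0 and 1 in dHx cells, against 27, 16 and 2 in WT cells. Authors' scores, which are −log10 values and can be read within a list only, were lower in the chromosome 2 window than outside both windows. Their median there was 5.41, 5.33 and 4.83 in dHx Negative, Middle and High cells, against 6.30, 6.40 and 7.26 outside the windows in the same lists. In the WT lists it was 4.16, 3.89 and 3.97, against 6.07, 6.52 and 5.97 outside. The chromosome 4 medians were 4.55, 8.67 and 7.26 in dHx cells, and 4.63, 3.89 and 3.97 in WT cells. They too lay below the values outside in each WT list and in dHx Negative, but not in dHx Middle and High.

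**Figure D2:**
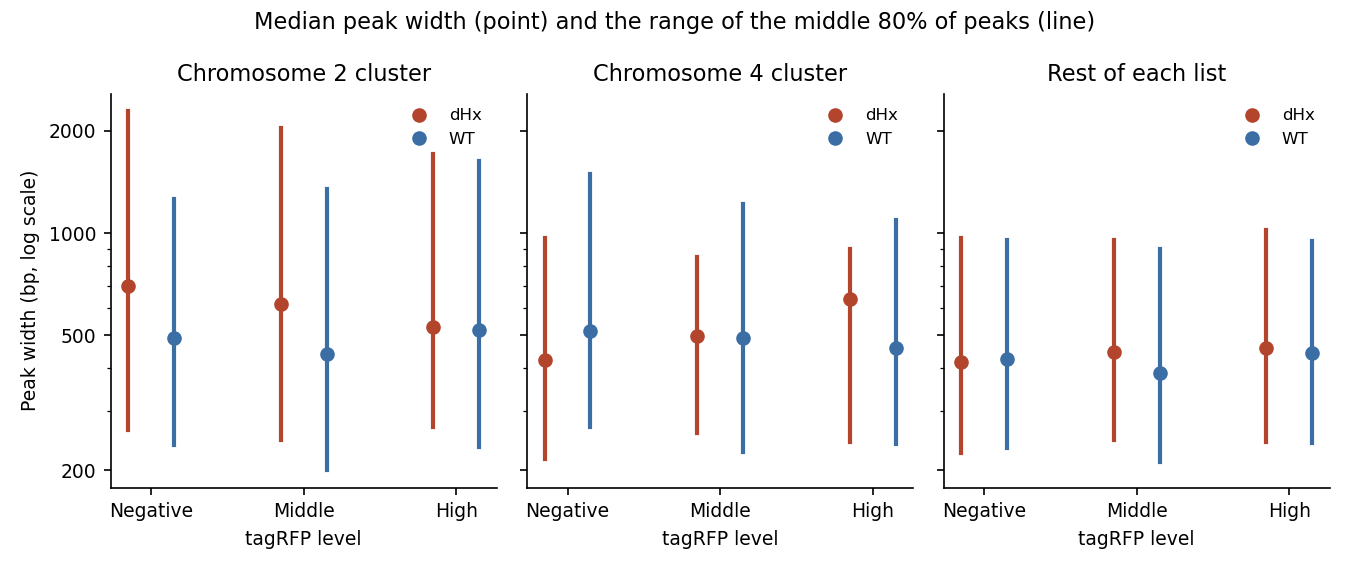
Peak width in bp on a log axis by tagRFP level, for the chromosome 2 window, the chromosome 4 window and the rest of each list; points are medians, lines run over the middle 80% of peaks, dHx in red and WT in blue. The dHx Negative and Middle lines of chromosome 2 reach above 2000 bp, while outside the windows all 6 lines end between 895 and 1022 bp.

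The differences followed the clusters along the chromosome. In bins of 500 kb, the chromosome 2 window held 118 to 207 peaks per bin in dHx Negative cells, against 31 to 72 in WT Negative cells. In the 4 Mb on either side, bins held 8 to 45 in dHx Negative and 6 to 21 in WT Negative cells. Just outside the window, the bin chr2:174500001-175000000 held 39, 19 and 13 peaks in dHx Negative, Middle and High cells, against 16, 11 and 18 in WT cells. The bin chr2:178000001-178500000 held 45, 22 and 13 in dHx cells, against 18, 15 and 20 in WT cells. The WT excess of chromosome 4 ran past the lower edge of the window. The bin chr4:145500001-146000000 held 41, 16 and 11 peaks in dHx Negative, Middle and High cells, against 92, 104 and 43 in WT cells. Past the upper edge, chr4:148000001-148500000 held 37, 19 and 20 in dHx cells, against 22, 23 and 20 in WT cells.

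Of 30 bins of 100 kb on chromosome 2, dHx held more peaks than WT in 30, 29 and 13 in Negative, Middle and High cells, and WT held more in 0, 0 and 12. Of 20 such bins on chromosome 4, dHx held more in 0 at each level, and WT held more in 16, 19 and 19. The upper end of the chromosome 4 window, past Zfp933, the last gene with a Zfp symbol (end at position 147849126), stood apart. It held 7, 5 and 6 peaks in dHx Negative, Middle and High cells, against 10, 9 and 7 in WT cells. Before that position the numbers were 108, 46 and 32 in dHx cells, against 348, 427 and 177 in WT cells.

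**Figure D3:**
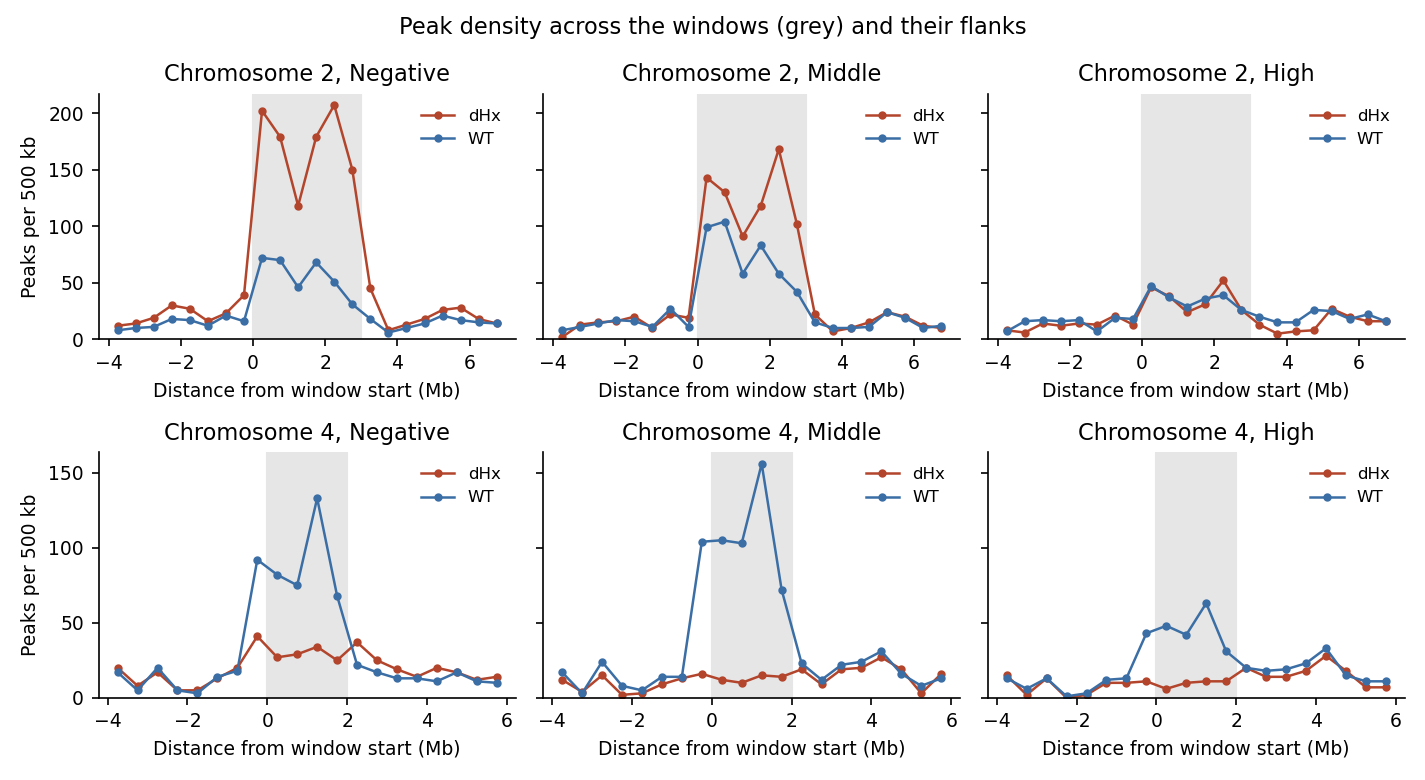
Merged peaks per 500 kb (vertical) by distance from the start of the window in Mb (horizontal), for the chromosome 2 window (top) and the chromosome 4 window (bottom) at each tagRFP level; the window is grey, dHx red and WT blue. The dHx line of chromosome 2 reaches 207 in Negative cells inside the window, and the WT line of chromosome 4 reaches 156 in Middle cells and is already at 104 in the bin before the window.

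Among the bins of 1 Mb over all chromosomes, whose median was 12 to 15 peaks, those of the clusters ranked near the top in some lists. The bin that starts at 175000000 on chromosome 2 held the most peaks of any bin in dHx Negative (381) and dHx Middle cells (273). The bin from 147 Mb of chromosome 4 held the most in WT Negative cells (201), while it held 59 in dHx Negative cells and ranked 64 there. On chromosome 2, dHx held at least 2-fold more peaks than WT in 3, 1 and 0 of the 3 bins in Negative, Middle and High cells, and over the genome in 6.83%, 0.756% and 0.223% of bins with at least 10 peaks in either list. On chromosome 4, WT held at least 2-fold more in both bins at each level, and over the genome in 0.444%, 5.82% and 7.30% of bins in Negative, Middle and High cells. The windows were chosen on this contrast, so nothing is read from these shares.

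Position by position, the peaks of one genotype were often absent from the other. With an overlap of at least 1 bp counted as shared, 74.1%, 63.7% and 48.8% of the chromosome 2 peaks of dHx Negative, Middle and High cells had no WT counterpart at the same level, while over the whole lists the shares were 44.5%, 30.9% and 30.6%. Of the WT chromosome 2 peaks, 8.88%, 29.3% and 46.3% had no dHx counterpart, with 28.8%, 43.9% and 43.0% over the whole lists. On chromosome 4, 27.0%, 7.84% and 18.4% of dHx peaks had no WT counterpart, and 77.9%, 89.0% and 82.6% of WT peaks had no dHx counterpart. Nothing is read from these shares either, since the windows were chosen on the same lists. A share of chromosome 4 dHx Middle peaks rests on 51 peaks, 4 of them absent from WT. Peaks without a counterpart scored low, inside the windows and outside them. In dHx Negative cells their median score on chromosome 2 was 4.55, against 12.3 for those with one, and in WT Middle cells on chromosome 4 it was 3.89, against 16.6. Outside the windows these medians were 3.74 against 11.2 in dHx Negative cells, and 4.73 against 10.5 in WT Middle cells.

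Of the 1095 joined regions of chromosome 2, 660 (60.3%) held peaks of dHx lists and of no WT list, and 59 (5.39%) the reverse. Of the 556 of chromosome 4, 22 (3.96%) held peaks of dHx lists and of no WT list, and 425 (76.4%) the reverse. Among the regions outside the windows, 23.4% held peaks of dHx lists and of no WT list, and 26.8% the reverse. Regions in 1 list only numbered 479 on chromosome 2 (43.7%) and 290 on chromosome 4 (52.2%), against 45.2% elsewhere. On chromosome 2, 19 regions held a peak in all 3 dHx lists and in no WT list, and 0 the reverse. For chromosome 4 the numbers were 0 and 45. Elsewhere such regions made up 0.218% and 0.304%, and since the windows were chosen on these lists nothing is read from the difference. Of the 19, the one that reached the highest score in any list was chr2:177479508-177484995, which starts 314 bp past the end of Zfp970 and held 3, 3 and 2 peaks in dHx Negative, Middle and High cells. Of the 45 it was chr4:147954317-147955367, nearest to 2510039O18Rik and past the Zfp genes, with 1 peak in each WT list.

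Regions common to all lists numbered 90 on chromosome 2 (8.22% of its regions) and 22 on chromosome 4 (3.96%), against 13.8% of the regions elsewhere. On chromosome 2, 27 of the 90 (30%) overlapped a promoter window, against 10 of the other 1005 (0.995%). The 90 were also wider, with a median of 3078 bp against 669 bp, and a wider region meets a promoter window more easily. The part of width in these shares was not tested. The median score of the 90 stood at percentile 98.4, 97.8 and 83.0 of the whole list in dHx Negative, Middle and High cells, and at 93.4, 90.3 and 93.2 in WT cells. On chromosome 4, 6 of the 22 overlapped a promoter window, and the percentiles were 80.5, 74.2 and 67.1 in dHx cells, against 97.6, 95.3 and 96.6 in WT cells. These promoter shares and percentiles are not given for the regions in all lists outside the windows, so they are not read as traits of the clusters. One of the 90 is chr2:177204952-177209002, which overlaps Gm14410. It was named because it reached the highest score of its window in any list, in dHx Middle cells. Its score stood at percentile 99.97, 99.99 and 99.94 of the whole list in dHx Negative, Middle and High cells, and at 99.86, 99.85 and 99.88 in WT cells. The region of chromosome 4 named in the same way, chr4:147867906-147869099 at Miip and Fv1, stood at percentile 98.7, 99.5 and 98.4 in dHx cells, and at 99.6, 99.2 and 99.2 in WT cells. It lies past the Zfp genes.

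The widest joined regions of chromosome 2 were a pair of equal width, 9913 bp. They lie at Gm4724 (chr2:175427260-175437172) and at Gm2007 (chr2:175736548-175746460), and both held peaks of all 6 lists. On chromosome 4 the widest was chr4:147357803-147362260 in Zfp978, with 2, 3 and 2 peaks in WT Negative, Middle and High cells and 0 in every dHx list. The next, chr4:146472423-146476699 near Zfp992, held 1, 0 and 0 peaks in dHx cells, against 1, 1 and 3 in WT cells.

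Peaks with the same width and the same scores as another peak of their list were frequent among the strong peaks of chromosome 2. Of its peaks with a score of at least 100, 16 of 40, 12 of 40 and 18 of 40 in dHx Negative, Middle and High cells had such a counterpart, against 16 of 35, 18 of 41 and 20 of 37 in WT cells. Outside the windows the share was 0% to 1.74% per list. In dHx Negative cells, for example, chr2:175370394-175373049 at Zfp968 and chr2:176518936-176521591 at Zfp967 were both 2656 bp wide with the score 340. The deposited peak names hold the word unique, while the sources used here do not say how reads that match several copies were placed. Pairs of this kind stood in lists of both genotypes. The number of gene copies in these embryos was not measured here, and its part in the counts was not tested.

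Among genes, each region was given to the gene whose body it overlaps or else to the nearest one. With the 3 levels added up, all 30 protein-coding genes of chromosome 2 had more peaks in dHx than in WT. On chromosome 4, 20 of 21 had more in WT. The other was Fv1, a restriction factor against murine leukaemia viruses. Its promoter overlapped a peak in all 6 lists, but the region there also overlaps Miip and was given to it. By level, dHx was higher for 30, 25 and 12 of the chromosome 2 genes in Negative, Middle and High cells, and WT for 0, 5 and 16. On chromosome 4, WT was higher for 17, 19 and 15 genes and dHx for 0 at each level. These sums follow from how the windows were chosen.

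On chromosome 2, Zfp970 and Gm14410 took the most regions, and nearly all of these lay beside the gene: 4 of 127 were in the body of Zfp970 and 9 of 113 in that of Gm14410. Zfp970 had 120, 89 and 26 peaks in dHx Negative, Middle and High cells, against 21, 23 and 16 in WT cells. Gm14410 had 113, 94 and 28 in dHx cells, against 24, 27 and 19 in WT cells. Both stood higher in dHx at each level. Gm4724 had 105, 69 and 19 peaks in dHx cells, against 45, 60 and 19 in WT cells. Gm14296 had 64, 49 and 13 in dHx cells, against 25, 30 and 16 in WT cells. Gm2004 had 45, 32 and 10 in dHx cells, against 19, 23 and 14 in WT cells. For Gm14296 and Gm2004 the sides turned at the High level.

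Apart from Zfp970, the Zfp genes of chromosome 2 had 2 to 22 regions each. Zfp973 had 24, 14 and 4 peaks in dHx Negative, Middle and High cells, against 7, 7 and 3 in WT cells. Zfp967 had 17, 16 and 4 in dHx cells, against 8, 5 and 1 in WT cells, and Zfp968 had 16, 14 and 4, against 6, 4 and 1. The smallest differences were those of Zfp965, with 6, 3 and 0 in dHx cells and 0, 1 and 1 in WT cells, and of Zfp972, with 22, 10 and 4 in dHx cells and 11, 9 and 4 in WT cells. Taken as a class, the 7 Zfp genes had 430 peaks in the dHx lists, against 143 in the WT lists, of which Zfp970 gave 235 and 60.

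On chromosome 4 the 14 Zfp genes had 173 peaks in the dHx lists, against 865 in the WT lists. Zfp993 had 25, 9 and 10 peaks in dHx Negative, Middle and High cells, against 67, 90 and 37 in WT cells. Zfp978 had 20, 9 and 5 in dHx cells, against 67, 79 and 33 in WT cells. Zfp600 had 16, 8 and 4 in dHx cells, against 49, 61 and 25 in WT cells. WT was higher at each level for all 3. Rex2, which is itself annotated without a Zfp symbol, had 11, 1 and 1 in dHx cells, against 33, 39 and 15 in WT cells. Zfp981 had 0 peaks in every dHx list, against 5, 11 and 2 in the WT lists. Bodies of several of these genes overlap, among them Zfp981 and Zfp993, and a region in more than 1 body went to the one it overlapped most, or to the shortest.

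The genes at the upper end of the chromosome 4 window, which do not carry a Zfp symbol, had 0 to 3 peaks per list. Mfn2, which encodes the mitofusin that fuses mitochondria, had 2, 2 and 2 peaks in dHx Negative, Middle and High cells, against 2, 3 and 2 in WT cells. Miip had 2, 1 and 2 in dHx cells, against 2, 2 and 2 in WT cells. 2510039O18Rik had 1, 1 and 1 in dHx cells, against 2, 1 and 1 in WT cells. Plod1, which encodes a collagen lysine hydroxylase, had 2, 1 and 1 in dHx cells, against 3, 2 and 2 in WT cells. Nppb, the gene of brain natriuretic peptide, had 0 in every dHx list, against 1, 1 and 0 in the WT lists. Summed over levels, WT was higher for these 5 genes. Zfp933, the Zfp gene next to them, had 2, 0 and 0 in dHx cells, against 2, 3 and 1 in WT cells.

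**Figure D4:**
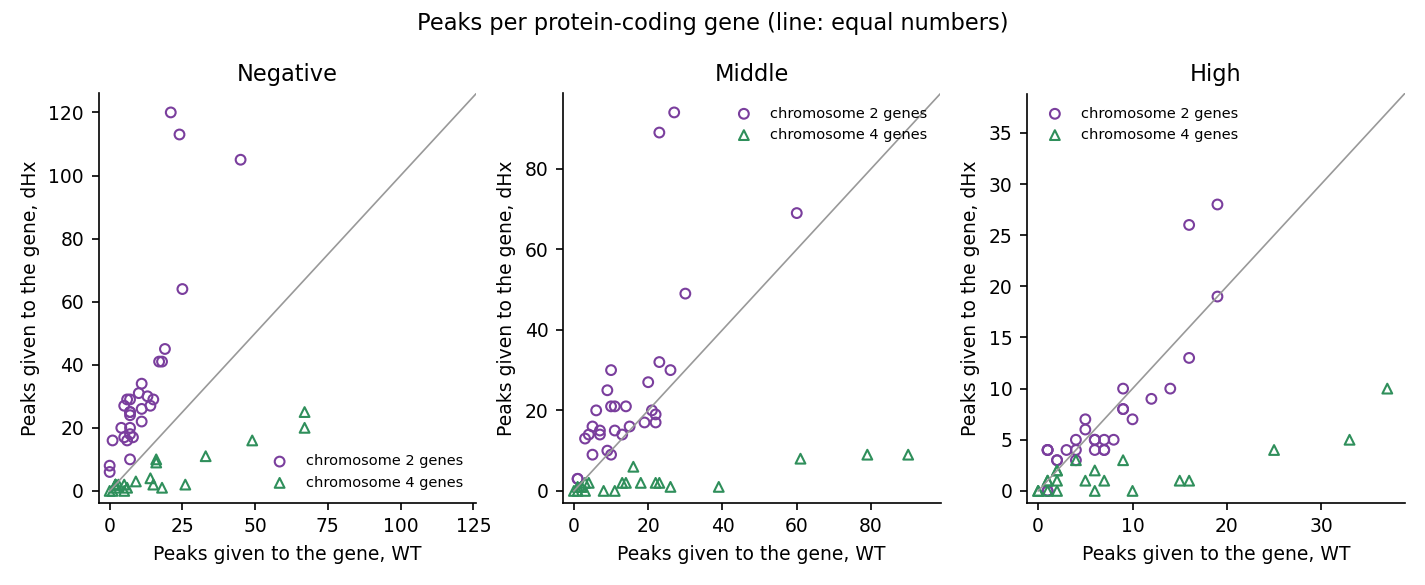
Peaks given to each protein-coding gene in the dHx list (vertical) and the WT list (horizontal) at each tagRFP level; purple circles are the 30 genes of the chromosome 2 window, green triangles the 21 of the chromosome 4 window, and the grey line marks equal numbers. In Negative cells all circles lie above the line, no triangle does, and in High cells the circles lie on both sides of it.

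Peaks near promoters and peaks away from them were counted apart. Within 1 kb of a promoter window, chromosome 2 held 53, 46 and 31 peaks in dHx Negative, Middle and High cells, against 33, 49 and 34 in WT cells. The ratios were 1.61 (1.02 to 2.56), 0.939 (0.614 to 1.43) and 0.912 (0.542 to 1.53). Farther away it held 982, 706 and 186 peaks in dHx cells, against 305, 395 and 180 in WT cells, with ratios of 3.22 (2.83 to 3.67), 1.79 (1.58 to 2.03) and 1.03 (0.837 to 1.28). On chromosome 4, 8, 7 and 7 dHx peaks lay near a promoter window, against 17, 17 and 12 WT peaks. The ratios were 0.471 (0.176 to 1.15), 0.412 (0.144 to 1.04) and 0.583 (0.195 to 1.61), and each interval includes 1. Farther away there were 107, 44 and 31 dHx peaks, against 341, 419 and 172 WT peaks. The ratios there were 0.314 (0.250 to 0.391), 0.105 (0.0752 to 0.143) and 0.180 (0.119 to 0.265). In the rest of the lists the ratio was 1.10, 0.949 and 0.992 near promoters and 1.33, 0.754 and 0.752 away from them.

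**Figure D5:**
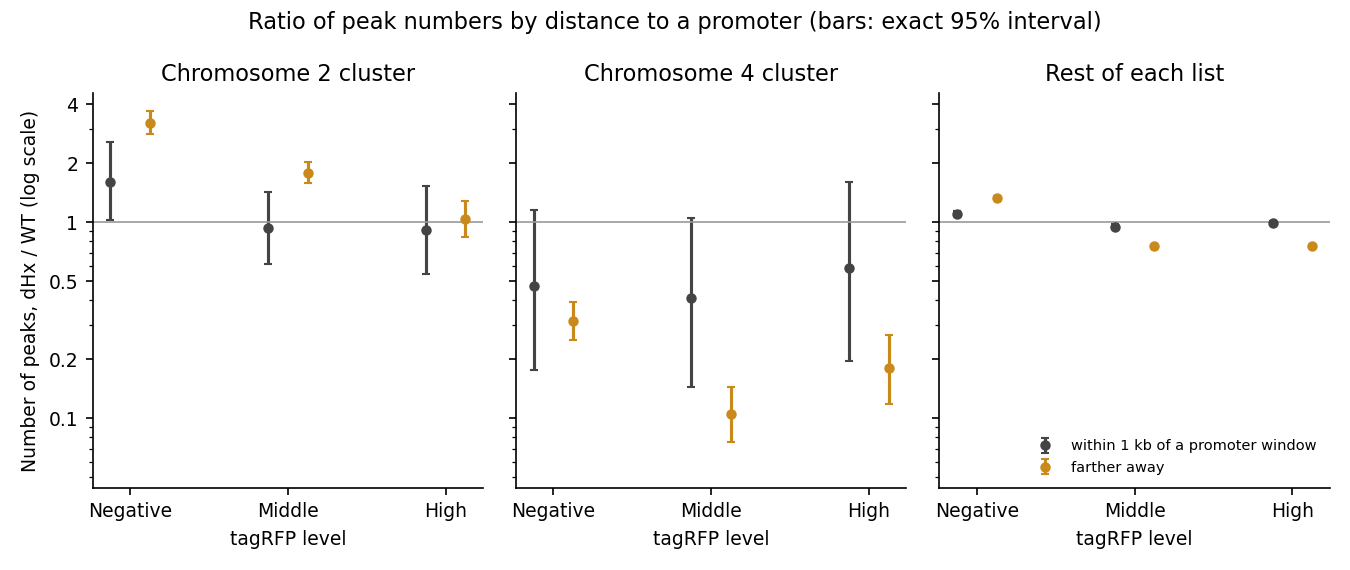
Ratio of the number of peaks in dHx to that in WT (log axis) by tagRFP level, for peaks within 1 kb of a promoter window (grey) and farther away (orange), with exact 95% intervals that cover counting error only. Away from promoters the ratio is 3.22 on chromosome 2 and 0.314 on chromosome 4 in Negative cells. Near promoters it is 1.61 and 0.471, and the interval of the latter includes 1.

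The clusters differed in how many of their promoter windows overlapped a peak. All 7 promoter windows of Zfp genes on chromosome 2 overlapped a peak in all 6 lists. Of the 14 such windows on chromosome 4, 1 did, and 9 (64.3%) overlapped no peak in any list. These 14 windows belong to 11 genes, since Zfp600 and Zfp982 have more than 1 each and some Zfp genes there have none. For Zfp genes elsewhere 53.5% of 387 windows were covered in all 6 lists and 12.9% in none. For all promoter windows the shares were 25.3% and 51.9%. The 7 windows of chromosome 2 may not be separate measurements. In their median, 100% of short sequence stretches (length given below) stood at another promoter locus too. That median was 19.6% for the 14 windows of chromosome 4 and 0% for Zfp windows elsewhere. How reads that match several copies were placed is not stated, so the 7 are not read as 7 promoters each found open. Over all genes, 40, 36 and 32 of the 47 windows of chromosome 2 overlapped a peak in dHx Negative, Middle and High cells, against 32, 33 and 31 in WT cells. The numbers on chromosome 4 were 10, 9 and 9 of 33 in dHx cells, against 15, 12 and 11 in WT cells. The 47 windows belong to 39 genes and the 33 to 23 genes. Zfp982, with 1 of its 3 windows, was covered in all 3 WT lists and in no dHx list.

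Sequence stretches of 38 bases, the read length per the labels' protocols, were often found at more than 1 promoter locus. In the median window of chromosome 2, 84.8% of its stretches were shared with another locus, in that of chromosome 4 5.32%, and over all windows 0%. At least 50% was shared in 66.0% of the windows of chromosome 2 and 24.2% of those of chromosome 4, against 4.10% of all windows. The windows of Zfp967, Zfp968 and Zfp970 shown above were shared in full, and that of Zfp972 not at all, although all 4 were covered in every list. CCAAT, on either strand, stood in 74.5% of the windows of chromosome 2 and 51.5% of those of chromosome 4, against 37.4% of all windows of the same length. Several chromosome 2 windows overlap, as at Gm4631, or equal each other in every base, so they are not separate sites. TGTTTAC, a forkhead motif, was found on either strand in 4.26% of the chromosome 2 windows, in 12.1% of the chromosome 4 windows and in 3.65% of all. The 12.1% are 4 of 33 windows, 3 of which are overlapping windows of Gm30681. TGTTTGC, another forkhead motif, stood in 0 windows of either cluster and in 5.07% of all. Of the Zfp windows in the clusters, 0 held either motif.

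Other zinc finger clusters were set beside these. Outside the chromosome 4 window, 18 bins of 1 Mb held at least 5 genes with a Zfp symbol. Their ratio of dHx to WT peaks, added over the 3 levels, ran from 0.839 to 1.17 with a median of 0.914. Single levels varied more. The bin from 67 Mb of chromosome 13 had 57, 36 and 38 peaks in dHx Negative, Middle and High cells, against 33, 45 and 34 in WT cells. The bin from 69 Mb of chromosome 8 had 83, 56 and 44 in dHx cells, against 70, 99 and 49 in WT cells. The 2 bins of the chromosome 4 window had 94 and 110 dHx peaks, against 455 and 523 WT peaks, for ratios of 0.207 and 0.210. The chromosome 2 bins are not among the 18, since few of their genes carry a Zfp symbol. The stretch just below the chromosome 4 window, where WT also held more peaks, is not among the 18 either. Foxa2 itself, which carries the knock-in allele, lies on chromosome 2 at 148042877 to 148046969, 27.0 Mb from the start of the chromosome 2 window. With 1 list per group, genotype cannot be told apart from other differences between the embryos pooled for each list.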

How the data were processed

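Chromatin accessibility was measured by ATAC-seq in 12 samples, 2 for each of 6 groups of genotype and tagRFP level, taken from the titles and labels. The labels call them biological replicates. The authors deposited 1 peak list per group on mm10, for which the submitters' processing notes name STAR 2.5.2a and MACS2 without settings. The names of the deposited peaks contain Pooled and unique, and each list was read as made from the pooled samples. The score the authors deposited was read from its values as a −log10 p or q value, and the sources do not say which. It grows with depth and was read within lists, except that the rule for named regions took the highest score reached in any list.

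Rows with the same start and end were merged into 1 peak with the highest score. Peaks with their midpoint in a window were counted, and overlap meant at least 1 bp. A Poisson background was fitted to the steps between the 40 lowest distinct scores of a list. Its use as relative depth assumes equal peak-calling settings and scores that are −log10 p values. With q values the fitted steps would not hold. Ratios carry conditional binomial and shares Clopper-Pearson 95% intervals, which cover counting error only. With 1 list per group no test was made. The overlap code was tested on simulated data.

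Genes and promoter windows came from RefSeq tables of GRCm38.p6, the assembly mm10 names. No protein table was used, so genes were classed by a Zfp symbol. Named were, per cluster, the 6 genes with the most regions, the 4 Zfp genes whose dHx count exceeded the WT count most, the 2 where it did so least, and the 4 other genes with the most regions. Named regions were the 2 that reached the highest score among regions held by all lists, the 2 widest and the 1 highest-scoring in all lists of 1 genotype alone. The windows, members and gene lists were chosen with earlier results of these data known. Alternatives were a score of at least 10, lists of equal length, windows narrowed to the zinc finger genes, every summit counted, peaks within 500 bp joined, a reciprocal overlap of 50% and equal peaks counted once. Python 3.11.15 with numpy 2.4.6, pandas 2.3.3, scipy 1.17.1 and matplotlib 3.10.9 was used.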

Additional observations from a re-analysis of the deposited data

How the results depend on the processing

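The 14 results, which are ratios and shares, were recomputed 84 times in all, and 43 of these values moved past the counting interval. The cause was not tested. Among the ratios, none whose main interval excludes 1 changed side. The shares have no such side, and the order of the genotypes' shares turned in places, as given below. No paired analysis was possible because each list pools its samples and gives no value per replicate, so no replicate could be left out either. Counting equal peaks once was chosen after seeing the data.

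With lists of equal length, the ratio of dHx to WT on chromosome 2 was 2.45 in Negative, 2.30 in Middle and 1.84 in High cells. On chromosome 4 it was 0.190, 0.217 and 0.352. High over Negative was then 0.358 in dHx and 0.389 in WT cells. With a score of at least 10, the chromosome 4 ratios were 0.481 in Negative, 0.279 in Middle and 0.361 in High cells, and High over Negative was 0.313 in dHx and 0.675 in WT cells. With every summit counted, the chromosome 2 ratio was 4.82 in Negative and 1.99 in Middle cells, and High over Negative in dHx cells was 0.148. With peaks within 500 bp joined, the chromosome 2 ratio in Negative cells was 2.20 and High over Negative in dHx cells 0.328. With equal peaks counted once, the chromosome 2 ratio was 3.65 in Negative and 1.92 in Middle cells.

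Over both windows together, 69.4%, 60.1% and 44.3% of peaks in dHx Negative, Middle and High cells had no counterpart in the other genotype, against 44.4%, 58.9% and 63.1% in WT cells. Over whole lists these shares were 44.5%, 30.9% and 30.6% in dHx cells, against 28.8%, 43.9% and 43.0% in WT cells. Equal list lengths gave 65.4%, 65.6% and 49.4% in dHx cells, against 54.2%, 46.1% and 41.2% in WT cells, and 34.1% to 35.9% over whole lists. A score of at least 10 gave 61.3%, 45.9% and 23.6% in dHx cells, against 29.9%, 39.1% and 35.8% in WT cells, and 22.2% to 43.4% over whole lists. A reciprocal overlap of 50% gave 89.9%, 85.8% and 60.8% in dHx cells, against 83.3%, 87.0% and 74.9% in WT cells, and 45.6% to 57.7% over whole lists. Joined peaks gave 60.5% (dHx Negative), 55.3% (dHx Middle) and 55.5% (WT Middle), with 43.3%, 30.2% and 42.5% over whole lists. Equal peaks counted once gave 63.9% (dHx Middle), 53.6% (WT Negative) and 65.7% (WT Middle), with 30.8%, 28.9% and 43.9% over whole lists. The order of the genotypes' shares thus turned in High cells with lists of equal length. In Middle cells it turned with a reciprocal overlap, joined peaks, equal peaks counted once and narrowed windows (61.3% in dHx, 61.7% in WT). With narrowed windows the whole-list shares were 30.9% in dHx Middle and 43.9% in WT Middle cells.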
